A study of Danio rerio with 6 samples.

Results

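The heat shock proteins described here are 9 genes, chosen by symbol from the 29361 gene symbols of the deposited count table: hsp90aa1.1, hsp90aa1.2, hsp90ab1, hsp70l, hspa8, hspb1, dnajb1b, hspd1 and hspe1. All 9 were found in the table and all 9 passed the filter on low counts. Their RNA was measured by sequencing in 3 wild-type and 3 mutant libraries of zebrafish cells sorted at 48 hours after fertilisation. Both genotypes carried the kdrl eGFP transgene, whose kdrl promoter is active in endothelial cells, and the mutant fish carried the uq4bh allele of mafba, a large Maf transcription factor gene. The labels do not say whether the mutants were homozygous, nor whether each library was made from its own batch of embryos. The labels call the samples purified endothelial cells, while the extraction text names brains and a pdgfr beta reporter, so the tissue and the gate are not settled by them.

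Heat shock proteins are molecular chaperones, which bind unfolded or partly folded proteins and keep them from aggregating. Hsp70 proteins bind and release stretches of unfolded chain in an ATP cycle that J-domain cochaperones of the Hsp40 family drive, and Hsp90 proteins finish the folding of kinases, receptors and other clients. Hsp60 and its lid Hsp10 fold proteins inside mitochondria, and small heat shock proteins hold unfolded proteins without using ATP. Cells make a constitutive set at all times, here hsp90ab1, hspa8, hspd1 and hspe1. An inducible set is raised by the heat shock factor Hsf1 when proteins misfold, here hsp90aa1.1, hsp90aa1.2, hsp70l, hspb1 and dnajb1b, and enzymatic dissociation of tissue before sorting is known to raise such genes. In zebrafish embryos hsp90aa1.1 is also a gene of developing striated muscle, where it takes part in myosin folding. The split into 5 inducible and 4 constitutive members follows this textbook knowledge and not the values.

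Library depth ranged from 43859736 to 52923490 reads on genes. The RNA of mafba itself stood at 32.9, 45.8 and 33.3 CPM in wild-type and 31.0, 39.6 and 38.6 CPM in mutant libraries, so its level did not separate the genotypes and does not check the labels. CPM here are counts relative to the library size after scaling by the TMM method. Of 11 endothelial markers 11 were detected in sufficient reads to be tested, among them kdrl at 34.3 to 54.8 CPM and the VE-cadherin gene cdh5 at 10.3 to 16.9 CPM. Markers of other cells were also present: the summed level over the list ranged from 417 to 651 CPM for endothelial, 3264 to 10088 CPM for 28 skeletal muscle, 6865 to 17020 CPM for 7 neutrophil and 9520 to 14929 CPM for 13 epidermis genes. Bulk libraries do not tell fewer cells of a type from less RNA per cell.

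The 9 heat shock genes together held between 1.76% and 2.04% of the scaled library size. None of them passed the test between genotypes. The SD of log2 CPM within a genotype, pooled over both genotypes, was 0.44 to 0.89 for the inducible and 0.07 to 0.26 for the constitutive members. Among the mutant libraries alone the sets overlapped. There hspb1 (1.28-fold from lowest to highest) and hsp90aa1.1 ranged less than the constitutive hspe1 (1.62-fold), while hsp90aa1.2, hsp70l and dnajb1b ranged more. Between the lowest and the highest of the 6 libraries the inducible members differed 2.57-fold to 5.07-fold, and the constitutive members 1.11-fold to 1.62-fold. For hsp90aa1.2, hsp70l and dnajb1b the highest libraries were wild-type 2 and mutant 2, and the lowest was mutant 1. The labels do not tie libraries of the same number to each other.

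**Figure D1:**
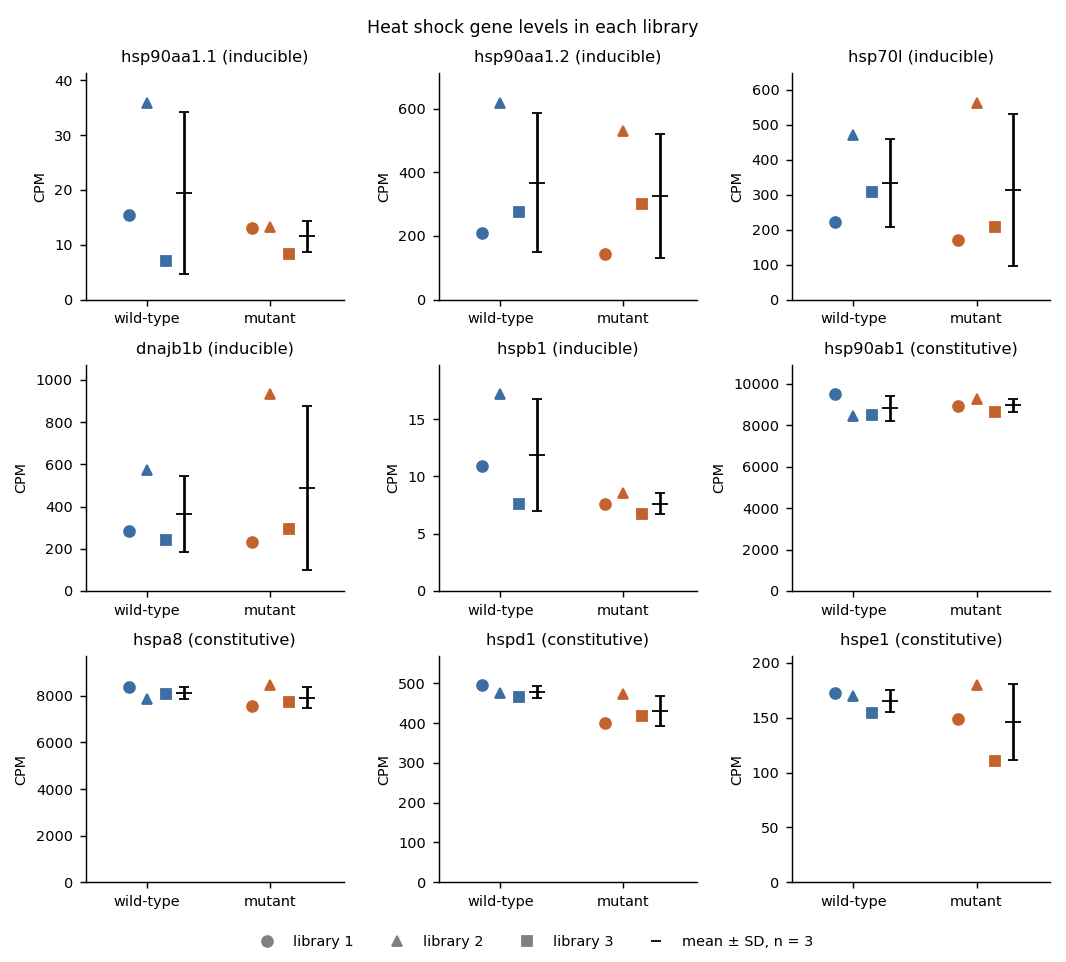
CPM of each heat shock gene (vertical axes, linear, from 0) in the wild-type (blue) and mutant (orange) libraries, with the marker shape giving the library number and the bar giving mean ± SD (n = 3 libraries). In the panels of hsp90aa1.2, hsp70l and dnajb1b the triangles of library 2 lie highest in both genotypes, while the points of hsp90ab1 and hspa8 lie close together.

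Among the inducible Hsp70 and Hsp40 genes, hsp70l encodes an Hsp70 made on heat shock. Its level was 222, 469 and 306 CPM in wild-type 1, 2 and 3 and 170, 562 and 207 CPM in mutant 1, 2 and 3. The groups overlapped, with mutant 2 above every wild-type library and mutant 1 and mutant 3 below every one. The means were 332 ± 126 and 313 ± 217 CPM (SD, n = 3 each), and the log2 difference, mutant minus wild-type, was -0.09 ± 0.46 (SE) with a 95% interval of 0.455 to 1.95 times wild-type. Its sign turned when wild-type 2, mutant 1 or mutant 3 was left out (0.24, 0.21 and 0.14). Without mutant 2 the difference was -0.82 ± 0.27 (SE), so the value near 0 rested on that library.

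The gene dnajb1b encodes an inducible J-domain cochaperone that hands substrates to Hsp70. Its level was 284, 572 and 243 CPM in the wild-type and 231, 933 and 295 CPM in the mutant libraries. Mutant 2 stood apart from the other mutant libraries, and wild-type 2 from the other wild-type libraries. The log2 difference of dnajb1b was 0.41 ± 0.54 (SE), with an interval of 0.560 to 3.15 times wild-type. That value depended on both mutant 2 and wild-type 2. The difference was -0.48 without mutant 2 and 0.88 without wild-type 2. Without both, a setting chosen after the values were seen, it was 0.005942. In the 4 libraries not numbered 2, the highest dnajb1b level was 1.28 times the lowest, against 4.05 times over all 6. The other inducible members ranged more in those 4: hsp90aa1.1 2.17 times, hsp90aa1.2 2.09, hsp70l 1.80 and hspb1 1.63.

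The inducible Hsp90 genes hsp90aa1.1 and hsp90aa1.2 are adjacent protein-coding genes in the RefSeq gene table of the assembly GRCz12tu, and their libraries did not fall in the same order. For hsp90aa1.2 the level was 209, 619 and 276 CPM in wild-type and 144, 532 and 301 CPM in mutant libraries. The order of the libraries resembled that of hsp70l, and the groups overlapped. The log2 difference was -0.18 ± 0.51 (SE), and it turned to 0.42 without wild-type 2 and to 0.18 without mutant 1.

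For hsp90aa1.1 the level was 15.4, 35.9 and 7.09 CPM in wild-type and 13.1, 13.2 and 8.26 CPM in mutant libraries. Here wild-type 2 alone stood high, mutant 2 lay close to mutant 1, and wild-type 3 was the lowest of all. The log2 difference of hsp90aa1.1 was -0.76 ± 0.47 (SE), with a 95% interval from -1.78 to 0.27. Without wild-type 2 it was 0.04, and limma-voom with quality weights gave -0.19. Reads that fit both genes equally well could not be assigned to either, so their counts carry an uncertain share. How alike the genes are was not measured here. The level of hsp90aa1.1 rests on 368 to 1568 reads per library.

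The small heat shock gene hspb1 encodes the zebrafish Hsp27, an ATP-independent chaperone that also binds actin filaments. It stood at 10.9, 17.2 and 7.57 CPM in wild-type and 7.61, 8.57 and 6.68 CPM in mutant libraries. Wild-type 3 lay among the mutant libraries, so the groups overlapped. These levels rest on 358 to 750 reads per library. The log2 difference of hspb1 was -0.64 ± 0.34 (SE), with an interval from 0.385 to 1.07 times wild-type. It kept its sign with each library left out, between -0.88 and -0.28, and had the smallest p of the 9 genes (0.0833 unadjusted and 1 adjusted over all genes, edgeR quasi-likelihood).

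Among the constitutive members, hsp90ab1 encodes Hsp90 beta, the standing cytosolic Hsp90. Its level was 9510, 8456 and 8489 CPM in wild-type and 8950, 9289 and 8643 CPM in mutant libraries. The libraries lay within 1.12-fold of each other and in a different order from the inducible genes, with wild-type 2 the lowest. The log2 difference of hsp90ab1 was 0.02 ± 0.16 (SE), with an interval from 0.803 to 1.29 times wild-type.

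The constitutive Hsp70 gene hspa8, whose product also strips clathrin from coated vesicles, gave 8375, 7864 and 8092 CPM in wild-type and 7578, 8439 and 7752 CPM in mutant libraries. This was the narrowest range of the 9 genes, 1.11-fold from lowest to highest. The log2 difference was -0.03 ± 0.15 (SE), with an interval from 0.774 to 1.23 times wild-type.

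The mitochondrial chaperonin genes hspd1 (Hsp60) and hspe1 (Hsp10) are also adjacent in the RefSeq table. For hspd1 the level was 494, 474 and 466 CPM in wild-type and 399, 472 and 418 CPM in mutant libraries. Mutant 1 and mutant 3 lay below every wild-type library and mutant 2 among them, and the log2 difference was -0.15 ± 0.14 (SE). For hspe1 the level was 173, 170 and 154 CPM in wild-type and 149, 179 and 110 CPM in mutant libraries. Mutant 2 was the highest and mutant 3 the lowest of the 6, and the log2 difference was -0.18 ± 0.18 (SE). With each library left out in turn hspd1 ranged from -0.23 to -0.10. For hspe1 the difference was -0.01 without mutant 3 and -0.35 without mutant 2.

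Tested with edgeR's quasi-likelihood method and adjusted by Benjamini-Hochberg over all genes, 0 of the 9 heat shock genes passed at 0.05, where 0% of the 19381 tested genes passed. At an unadjusted p under 0.05 the test found 0 of 9, against 1.57% of all tested genes. DESeq2 and limma-voom also called 0 of the 9. The fitted value was lower in mutant for 7 of 9 members, 4 of 5 inducible and 3 of 4 constitutive, where 50.7% of all genes were fitted lower. The genotypes did not separate for any member, 0 of 9, where the groups of 6.74% of all tested genes did not overlap. Exact two-sided permutation tests of log2 CPM gave p between 0.2 (hspd1) and 0.8, where 3 libraries against 3 cannot give less than 0.1. These p-values set the difference between the group means against the spread between libraries, which may be technical. With SEs of 0.34 to 0.54 for the inducible and 0.14 to 0.18 for the constitutive members, the 95% intervals of this test, which has no block, were wider for the inducible genes.

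**Figure D2:**
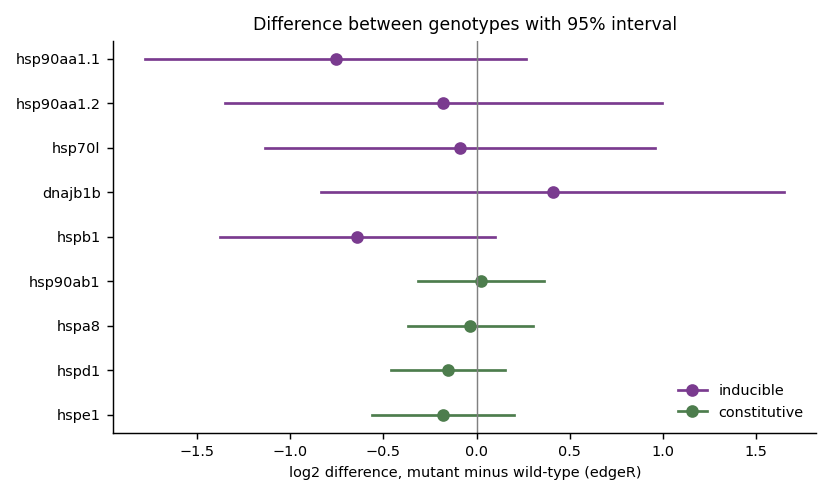
Fitted log2 difference of each heat shock gene, mutant minus wild-type, with its 95% interval (horizontal axis, log2 units; edgeR, n = 3 libraries each). Every interval spans 0, and those of the inducible genes (purple) are wider than those of the constitutive genes (green), from -1.78 to 0.27 for hsp90aa1.1 and from -0.32 to 0.36 for hsp90ab1.

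Set against each other within a library, the inducible members held part of the summed CPM of all 9 members. That share was 3.84%, 9.17% and 4.66% for wild-type 1, 2 and 3, while the mutants 1, 2 and 3 had 3.20%, 10.03% and 4.61%. The share was highest in library 2 of both genotypes and lay between 3.20% and 4.66% in the other 4. Its means were 5.89% ± 2.87 and 5.95% ± 3.61 (SD, n = 3 each), so the genotypes differed by less than the spread between replicates. This share compares libraries and not genes, since CPM do not take gene length into account. The summed level of the inducible members ranged from 565 to 2049 CPM, and that of the constitutive members from 16923 to 18551 CPM.

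The mean log2 CPM of the inducible members minus that of the constitutive members, which gives each gene the same weight, was -4.45, -3.25 and -4.53 for the wild-type libraries, while the mutants had -4.65, -3.67 and -4.39. The groups overlapped, with wild-type 2 and mutant 2 the highest. The mean difference between genotypes was -0.16 log2 units, which is smaller than the pooled SD of 0.62 between libraries of a genotype. It was 0.25 without wild-type 2, 0.05 without mutant 1 and -0.44 without mutant 2. The choice of members also moved it, to -0.25 without hspd1 and hspe1 and to -0.10 without hsp90aa1.1.

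The spread of a gene between libraries depends on its level, so each member was placed among the 500 tested genes nearest to it in mean log2 CPM. The pooled SD of log2 CPM within a genotype was 0.89 for dnajb1b, 0.88 for hsp90aa1.2, 0.87 for hsp90aa1.1 and 0.76 for hsp70l, above 99.4%, 99.6%, 98.6% and 98.4% of those genes. For hspb1 it was 0.44, above 59.6% of genes of like level. The constitutive hspa8, hsp90ab1 and hspd1 had SDs of 0.07, 0.08 and 0.09, above 3.8%, 7.0% and 12.8%. The SD of hspe1, 0.26, lay above 75.6%. Spread was thus high for the level in 4 of the 5 inducible members and low in 3 of the 4 constitutive members, with no cutoff set beforehand. Not matched for level, the median of this SD was 0.70 over skeletal muscle and 0.58 over neutrophil markers. It was 0.29 over the other chaperone genes and 0.45 over all tested genes.

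**Figure D3:**
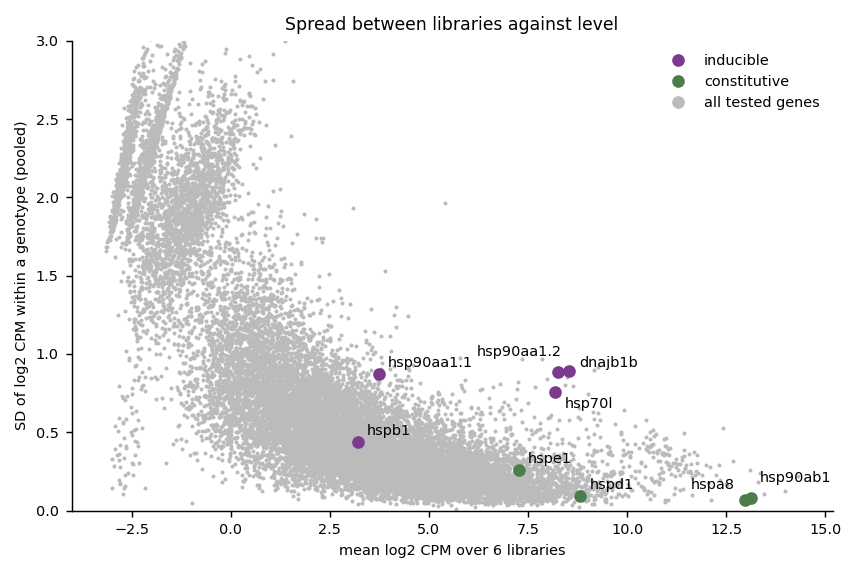
Pooled SD of log2 CPM within a genotype (vertical axis) against mean log2 CPM over 6 libraries (horizontal axis) for the tested genes (grey; 31 genes lie above the plotted range) and the heat shock genes. The inducible dnajb1b, hsp90aa1.2 and hsp70l (purple) lie at the upper edge of the cloud at their level, and hsp90ab1, hspa8 and hspd1 (green) at its lower edge.

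Wild-type 2 and mutant 2 were the 2 highest libraries for 3 of the 9 members, hsp90aa1.2, hsp70l and dnajb1b, where this held for 7.95% of all tested genes. This count was chosen after the values were seen. It also held for 5 of 38 other chaperone genes and 5 of 34 genes for heat shock factors and cochaperones, of which 4 are named here after their values were seen. The Hsp70 genes hsp70.2 and hsp70.3, which are adjacent in the RefSeq table, stood at 104, 289 and 157 CPM and at 169, 419 and 218 CPM in wild-type, and at 82.1, 382 and 123 CPM and 108, 533 and 169 CPM in mutant libraries. In both, mutant 2 was highest, wild-type 2 next and mutant 1 lowest, as in hsp70l and dnajb1b. The Hsp40 gene dnaja1 gave 33.6, 58.1 and 32.0 CPM in wild-type and 32.3, 55.8 and 36.1 CPM in mutant libraries. The gene listed as ahsa1l, for an activator of the Hsp90 ATPase, gave 72.3, 104 and 72.4 CPM and 50.5, 90.2 and 67.0 CPM. Reads that fit several of hsp70l, hsp70.2 and hsp70.3 equally well could not be assigned, and how alike these genes are was not measured here.

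Markers of several other cell types had the same 2 libraries highest. This was so for 21 of 28 skeletal muscle, 6 of 7 neutrophil, 4 of 9 erythrocyte, 1 of 13 epidermis and 0 of 11 endothelial markers, and for 8 of 28 immediate early genes. In the remaining lists it held for 0 of 9 lens, 1 of 5 heart, 0 of 6 macrophage, 1 of 9 neural and 1 of 7 pericyte markers tested. The summed level of the neutrophil markers was 8153, 11304 and 6939 CPM in wild-type and 6865, 17020 and 8539 CPM in mutant libraries, with lyz at 4076 to 10489 CPM. None of the 7 neutrophil markers was at 0 in all libraries. Their part in the levels of hsp70l, hsp90aa1.2 and dnajb1b was not tested.

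**Figure D4:**
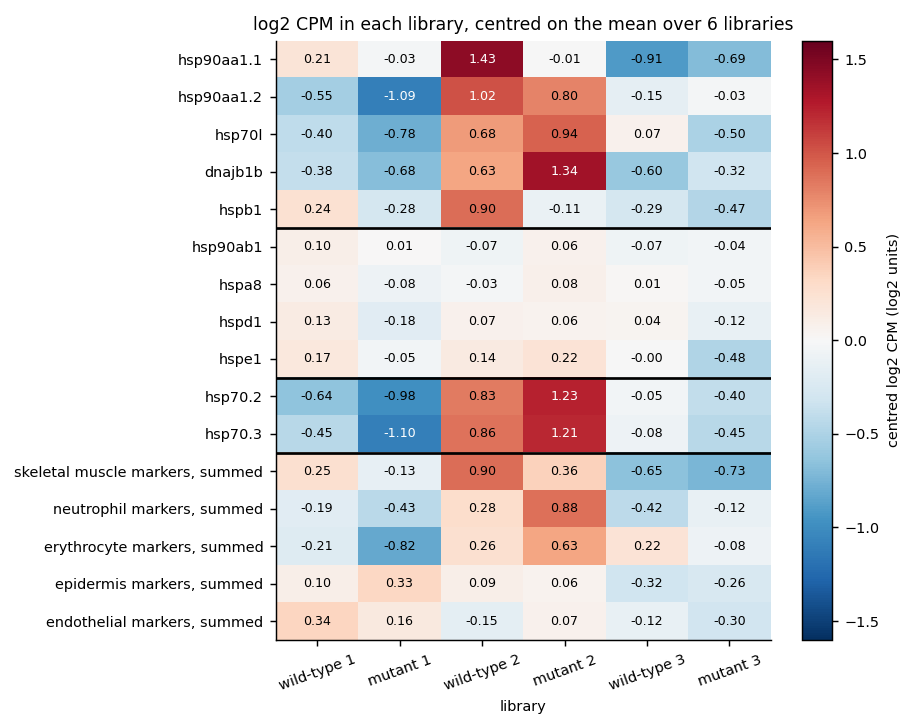
Log2 CPM of each heat shock gene, of hsp70.2 and hsp70.3, and of the summed markers of 5 cell types (rows) in each library (columns), centred on the row's mean over 6 libraries, with the value printed in each cell (log2 units, red above and blue below the mean). For dnajb1b mutant 2 stands at 1.34 and wild-type 2 at 0.63, while hsp90aa1.1 has 1.43 in wild-type 2 and -0.01 in mutant 2.

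The genes whose profile over the 6 libraries lay nearest to hsp90aa1.1 were sought among 11737 genes with a mean log2 CPM over 2, by the root mean square difference of centred log2 CPM. They were myhz1.3 (0.19 log2 units), tnni2a.4 (0.25), klhl31 (0.26), mylpfa (0.26) and txlnbb (0.26), where the profile of hsp90aa1.1 itself had a root mean square of 0.75. The fast muscle genes tnni2a.4 and mylpfa belong to the list of skeletal muscle markers. The summed level of the 28 muscle markers was 6461, 10088 and 3447 CPM in wild-type and 4968, 6973 and 3264 CPM in mutant libraries. As with hsp90aa1.1, wild-type 2 was highest, and wild-type 3 and mutant 3 were the lowest. Mutant 2 differed: in the muscle sum it came next after wild-type 2, above wild-type 1 and mutant 1. For hsp90aa1.1 mutant 2 (13.2 CPM) lay close to mutant 1 (13.1 CPM) and below wild-type 1 (15.4 CPM). None of the 28 was at 0 in all libraries. Of the muscle markers 24 of 28 were fitted lower in mutant (median log2 difference -0.36), and 0 passed the test. The part of muscle RNA in the level of hsp90aa1.1 was not tested. Its partner in myosin folding, unc45b, named after its values were seen, stood at 4.01, 8.57 and 3.04 CPM in wild-type and 4.36, 3.89 and 2.87 CPM in mutant libraries. From the same cochaperone list, smyd1a and smyd1b are also named after their values were seen. In wild-type smyd1a stood at 20.5, 20.8 and 7.45 CPM and smyd1b at 3.72, 4.24 and 1.33 CPM. The mutant libraries had 11.7, 16.9 and 10.8 CPM and 2.93, 3.42 and 0.765 CPM. For both, wild-type 2 lay close to wild-type 1, unlike in hsp90aa1.1 and unc45b, and mutant 2 lay above mutant 1.

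For hsp90aa1.2 the nearest profiles were those of tead3a (0.13 log2 units), si:rp71-36d5.4 (0.16), DNAJA4 (0.17), mmp13a (0.22) and si:ch211-264f5.2 (0.25), where its own root mean square was 0.73. DNAJA4 encodes a J-domain cochaperone of Hsp70 and was measured at 13.5, 47.0 and 25.9 CPM in wild-type and 11.1, 40.9 and 26.2 CPM in mutant libraries. The metalloproteinase gene mmp13a, which is in the list of neutrophil markers, stood at 459, 1104 and 388 CPM and at 300.3, 1155 and 545 CPM.

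Relations between members were computed for all 36 pairs over the 6 libraries, with exact two-sided permutation p-values. After adjustment over the 36 pairs 0 passed, the smallest adjusted p being 0.217 for Pearson's r. The closest was hspb1 with hsp90aa1.1 (r = 0.934, exact permutation p = 0.00694, Spearman's rho = 0.943, exact permutation p = 0.0167), and r was 0.860 without the libraries farthest from the median of hsp90aa1.1. For hsp90aa1.2 with hsp70l r was 0.915 (exact permutation p = 0.0167, rho = 0.771, exact permutation p = 0.103). Here r was 0.870 without wild-type 2 and mutant 1, the libraries farthest from the median of hsp90aa1.2, while the high mutant 2 was kept. For hsp70l with dnajb1b r was 0.896 (exact permutation p = 0.0181, rho = 0.771, exact permutation p = 0.103). That relation rested on wild-type 2 and mutant 2, the libraries farthest from the median of hsp70l, since r without them was 0.01. The libraries left out differed between these pairs, so the values of r without them are not compared. Between hsp90aa1.1 and hsp90aa1.2 r was 0.462 (exact permutation p = 0.367, rho = 0.371, exact permutation p = 0.497). It turned to -0.20 without wild-type 2 and wild-type 3, the libraries farthest from the median of hsp90aa1.1. Pairs of 1 inducible and 1 constitutive gene gave r between -0.27 and 0.614 (median 0.389). The 10 inducible pairs gave r between 0.419 and 0.934 (median 0.510). The 6 constitutive pairs gave r between 0.272 and 0.842 (median 0.613), so high r was not particular to the inducible members.

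In the wider chaperone network edgeR's quasi-likelihood method called 0 genes either, and the lists were read only by their counts and medians, beside a median of -0.00 log2 units over all tested genes. Of 38 other Hsp70, Hsp90, Hsp40 and mitochondrial chaperone genes 14 were fitted higher and 24 lower (median -0.02), and 0 passed. The smallest p in that list were those of the Hsp40 genes dnajb6b at -0.69 ± 0.27 (SE) and dnajb14 at 0.57 ± 0.36. Of 12 small heat shock and crystallin genes 9 had enough reads to be tested. Among these 8 were fitted lower and 1 higher (median -0.68), 0 passed, and the smallest p were those of hspb6 at -1.59 ± 1.02 and hspb9 at -0.68 ± 0.52. These genes were low, with hspb6 at 1.25, 2.38 and 1.45 CPM in wild-type and 0.510, 0.356 and 0.816 CPM in mutant libraries, values that did not overlap. In this list the groups of 3 of 9 tested genes did not overlap, against 6.74% of all tested genes.

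Of 34 tested genes for heat shock factors and cochaperones 15 were fitted higher and 19 lower (median -0.08), and 0 passed. The smallest p were those of bag1, a nucleotide exchange factor of Hsp70, and serpinh1a, a collagen chaperone of the endoplasmic reticulum. The level of bag1 was 13.7, 17.4 and 19.7 CPM in wild-type and 28.0, 37.3 and 19.9 CPM in mutant libraries, a log2 difference of 0.75 ± 0.26 (SE), and the groups did not overlap. For serpinh1a the log2 difference was 0.50 ± 0.22. The gene with the next smallest p, bag3, went the other way at -0.37 ± 0.17, and its groups did not overlap either. It is named after its values were seen. In this list the groups of 3 of 34 tested genes did not overlap, against 6.74% of all tested genes. The factor gene hsf1, the regulator of the inducible members, stood at 15.9, 12.3 and 25.1 CPM in wild-type and 18.0, 10.5 and 22.5 CPM in mutant libraries, and was lowest in wild-type 2 and mutant 2. It was named after its values were seen.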

How the data were processed

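RNA of sorted cells was amplified and sequenced, per the labels' protocols. The authors deposited whole-number counts per gene symbol, and the submitters' processing notes name bcl2fastq, STAR and HTSeq with the builds danRer7 and Zv9. The sources used here give no version, annotation or strand setting. Counts came from the table of the whole series, which equalled the files of the single libraries in every value. In those files 22.1% to 28.1% of entries lie in rows that name no gene, which were left out. Alignments that were not unique made up 13.6% to 15.0% of entries in 5 libraries and 20.3% in wild-type 1. They were counted for no gene, which lowers near-identical genes.

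Counts were fitted in R 4.3.3 with edgeR 4.0.16 (filterByExpr, TMM, robust quasi-likelihood test, no block, 19381 genes), with DESeq2 1.42.0 and limma 3.58.1 as alternatives. Permutation tests used Python 3.11.15. The log2 CPM had a prior count of 2. The tests were also run on simulated data, whose outcome is not given here and is not used as support. Of 264 list entries 236 matched a symbol and 10 a synonym in the RefSeq table, and 18 had no match. The members and lists were chosen with earlier results of these data known. The text names every member, genes of a list past the threshold or else the 2 with the smallest p, the leading marker of each list, and the 5 nearest profiles of the 2 members with the widest range. Coordinates, lengths, promoter and protein sequences were not used here. The planned promoter search, protein identities and levels per length were therefore not run. CPM of different genes and lists stand side by side without a correction for gene length. Their relative sizes are not read as relative numbers of transcripts.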

Additional observations from a re-analysis of the deposited data

How the results depend on the processing

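The number of genes changed between genotypes, of heat shock members changed and of genes changed in each chaperone list was 0 in the main test and under each alternative: scaling by RLE, upper-quartile or library totals, no filter (23505 genes), a filter of 10 CPM in 3 libraries (8846 genes, without hspb1), no robust fitting, a threshold of 0.1, DESeq2, limma-voom and each library left out. The threshold of 0.1 was applied to the edgeR fit alone, and the lowest adjusted p in DESeq2 was 0.0829, which is below 0.1. Unadjusted p under 0.05 were found for 305 genes in edgeR, 358 in DESeq2 and 465 in limma-voom. For the 9 members, 11 of 63 values with libraries left out turned the sign (in 5 genes), and 0 of 71 under another model, scaling, filter or block did. Another 27 values could not change by construction (files of the single libraries, no robust fitting and the other threshold). None reached the threshold (lowest adjusted p 0.9995). In limma-voom hsp90aa1.1 was -0.19 and hspb1 -0.43. With each library left out in turn, hsp90aa1.1 ranged from -1.15 to 0.03734, hsp90aa1.2 from -0.73 to 0.42, hsp70l from -0.82 to 0.24, dnajb1b from -0.48 to 0.88, hsp90ab1 from -0.005878 to 0.08349, and the inducible minus constitutive difference from -0.44 to 0.25. Leaving out both libraries numbered 2 was chosen after the values were seen. It gave 0 changed genes (287 at an unadjusted p under 0.05), hsp90ab1 at -0.02372, hsp70l at -0.48 ± 0.20 (SE), dnajb1b at 0.005942, hsp90aa1.1 at -0.06, and -0.03 for the inducible minus constitutive difference. The causes were not tested. A replicate block on the library number called 0 genes (523 at an unadjusted p under 0.05, lowest adjusted p 0.0535). It changed no call on a member. The inducible minus constitutive difference does not use the block, so it stayed at -0.16 by construction. Deviations of same-numbered libraries correlated at 0.0598, 0.0211 and 0.140 across all tested genes, and 4 of 6 libraries correlated best with their own number. Among the 4185 well expressed genes, whose log2 CPM averaged 5 or more, the values were 0.346, 0.113 and 0.537, with 5 of 6 libraries. How far same-numbered libraries deviated together thus depended on the genes used. The labels do not say what the numbers mean, so whether they pair the libraries is not known. Under the block hsp90aa1.2 was -0.21 ± 0.14 (SE), hsp70l -0.23 ± 0.16, dnajb1b 0.23 ± 0.17, hsp90aa1.1 -0.48 ± 0.31 and hspb1 -0.57 ± 0.30, and the constitutive members had SEs of 0.12 to 0.14. The levels of hspb1 and hspd1 were lower in mutant in each of the 3 same-numbered pairs, and those of the other members were not. The share of all tested genes for which this held was not computed, so nothing is read from it. DESeq2, limma-voom and fitting without robust estimation give no inducible minus constitutive value, and the stricter filter removed hspb1 from it.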

Other observations

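The cytosolic chaperonin CCT folds actin and tubulin, and its genes varied little between libraries. Of 14 CCT and prefoldin genes 4 were fitted higher in mutant and 10 lower (median -0.03 log2 units), and 0 passed the edgeR quasi-likelihood test. Their summed level ranged from 5292 to 5970 CPM. The smallest p were those of the prefoldin genes pfdn6 at -0.28 ± 0.18 (SE) and pfdn2 at 0.19 ± 0.19. Immediate early genes, which are raised within minutes of a stimulus, were abundant, with a summed level of 16354 to 20726 CPM over 28 genes and junbb at 1995 to 2727 CPM. Of these 17 were fitted higher and 11 lower (median 0.04), 0 passed, and the smallest p were those of egr3 at 0.26 ± 0.18 and socs3a at -0.29 ± 0.19.

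The marker lists set beside the heat shock genes gave 0 genes past the same test. The leading markers by CPM were fli1a (90.2 to 140 CPM), actc1b (628 to 1807), crybb1 (7.17 to 28.5), tnnt2a (1.21 to 3.79), hbae3 (791 to 2232), spi1b (29.6 to 67.6), krt4 (2510 to 4524), fabp7a (98.3 to 157) and notch3 (18.9 to 31.7), beside lyz. The markers with the smallest p gave log2 differences of 0.35 for erg and -0.28 for sox18 (endothelial), -1.33 for myod1 and -0.73 for tnni2b.1 (muscle), -0.87 for crygn2 and -2.19 for crygm2d1 (lens), -1.09 for vmhcl and 0.86 for myh6 (heart). In blood cells they were -0.85 for gata1a, -0.31 for hbbe2, 0.41 for mpx, 0.37 for lyz and -1.21 for mfap4, while c1qb was counted 36, 25 and 14 times in wild-type 1, 2 and 3 and 0, 0 and 4 times in the mutants. In skin, neural cells and pericytes they were 0.41 for tp63, 0.34 for krt91, listed as zgc:92533, -0.33 for fabp7a, -0.51 for neurod, 0.28 for notch3 and -0.88 for tagln.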
